A study of Mus musculus with 16 samples.

Results

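Chromatin accessibility was examined at 9 genes that guide B cells through lymphoid tissue: Ccr7, Ccr6, Cxcr4, Cxcr5, Gpr183, S1pr1, S1pr2, Itga4 and Klf2, chosen by symbol out of 21938 protein-coding genes of chromosomes 1 to 19, X and Y. The data were 8 ATAC-seq libraries of mouse splenic B cells on the C57BL/6 background. ATAC-seq uses the Tn5 transposase to cut open chromatin, so a peak marks DNA that was accessible. In 4 libraries the cells came from CD23-Cre Brg1 fl/+ mice and in 4 from CD23-Cre Brg1 fl/fl mice. Both groups carry the CD23-Cre transgene, which acts in mature B cells, and at least 1 floxed allele of Smarca4, the gene of the Brg1 ATPase that powers the BAF chromatin remodelling complex. The control used here is therefore heterozygous and not wild type. All cells were activated in culture with LPS at 10 µg/mL and IL-4 at 20 ng/mL, and 50000 cells went into each library. The growth protocol in the labels gives 72 hours of activation, whereas the series design gives 96 hours. The labels give no age, the mice of the study were young adults, and the extent of the deletion was not checked here. The comparison asks whether accessibility at these genes differed when both alleles rather than 1 were floxed.

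B cells find their place by following gradients. CXCR5 draws them into follicles, CCR7 toward the T cell zone, CXCR4 toward the germinal center dark zone and the bone marrow, and CCR6 toward CCL20. GPR183 (EBI2) senses oxysterols at the follicle edge. S1PR1 lets lymphocytes leave the organ toward sphingosine-1-phosphate in blood and lymph, while S1PR2 confines germinal center B cells. The α4 integrin encoded by Itga4 holds cells to VCAM-1 on stroma and vessels, and KLF2 is a transcription factor that drives S1pr1 and keeps resting lymphocytes in circulation.

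The deposited lists held between 6271 and 14614 peaks. Longer lists reach weaker peaks, and a gene without a peak may thus still be accessible below the limit of that library. Depth was read from the number of fragments at each peak's summit as MACS2 counted them. The median over the 4560 regions with a peak in all 8 lists was 78.0, 50.0, 23.0 and 36.0 fragments in Brg1 fl/+ replicates 1 to 4 and 47.0, 22.0, 42.0 and 42.0 in Brg1 fl/fl replicates 1 to 4. This median was 42.5 to 62.0 times the lowest background of the library in Brg1 fl/+ and 28.1 to 30.4 times in Brg1 fl/fl, with no overlap between the genotypes. Levels below are centred on each library's median and thus hold only changes relative to the other shared regions. The labelled cell type was visible in part at the promoters of B cell genes. Ms4a1 and Pax5 had one in all 8 libraries, Ebf1 in 6 and Cd79a in 1, while Cd79b, Cd22 and Blk had none. None of the 6 myeloid, 4 erythroid and 3 NK cell genes examined had a promoter peak, and of 6 T cell genes only Cd247 had one, in 1 Brg1 fl/+ and 4 Brg1 fl/fl libraries. Its part in the values below was not tested.

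Of the 9 genes, 4 had a promoter peak in all 8 libraries (Cxcr4, Cxcr5, Itga4 and Klf2), 2 in some (Ccr7 and S1pr2) and 3 in none (Ccr6, Gpr183 and S1pr1). A promoter was taken as the 1000 bp before and the first 100 bp after each annotated transcription start site. Among all 21938 protein-coding genes, 22.2% had a promoter peak in all 8 lists and 52.2% in none. The 9 genes had 14 regions in all out of 16566, 6 at promoters and 8 elsewhere in the gene body or within 10 kb. No region of the 9 genes with a peak in all 8 lists passed the test for a genotype difference relative to the library median, in either direction. Over all 4560 such regions, 3.55% passed as lower and 9.28% as higher in Brg1 fl/fl. Scaled to each library's background instead, all 5 member regions tested passed as lower, as did 4151 of the 4560. The most lopsided region lay in an intron of Ccr7, with a peak in 3 of 4 Brg1 fl/+ libraries and 0 of 4 Brg1 fl/fl libraries.

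**Figure D1:**
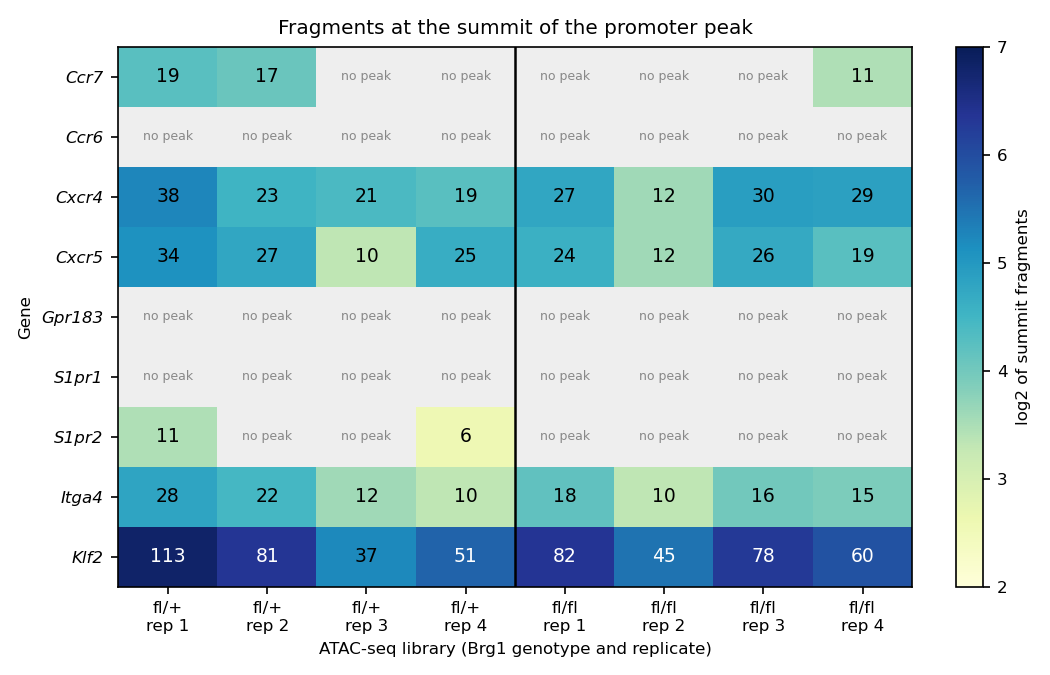
Number of fragments at the summit of the promoter peak of each gene (rows) in each ATAC-seq library (columns; Brg1 fl/+ left of the line, Brg1 fl/fl right of it), with colour on a log2 scale and grey where the list held no peak. Klf2 had the highest number in every library, 37 to 113, and Ccr6, Gpr183 and S1pr1 had no promoter peak in any.

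The sequences below are shown because they lie under the member promoters that were open in all libraries, and under the Ccr7 intron region, which was added after its values had been seen. Each is read 5′ to 3′ on the strand of its gene from GRCm38 (mm10), up to 100 bp to either side of the summit of the best peak. Bases inside an annotated exon were left off. Capitals mark matches, on either strand, to 12 short motifs: GGGCGG (SP or GC box), GGGTGTGG (KLF), CCGGAAGT (ETS), GAGGAAGT (PU.1), TGANTCA (AP-1), ATGCAAAT (OCT), TGTTTAC (FOXO), CAGGTG (E2A E-box), TGTGGT (RUNX), GGANTTTCC (NF-kB), CCAAT (NF-Y) and TGACGTCA (CRE). The ETS and PU.1 motifs share the core GGAAGT.
Cxcr4 promoter, chr1:128592294-128592476, minus strand: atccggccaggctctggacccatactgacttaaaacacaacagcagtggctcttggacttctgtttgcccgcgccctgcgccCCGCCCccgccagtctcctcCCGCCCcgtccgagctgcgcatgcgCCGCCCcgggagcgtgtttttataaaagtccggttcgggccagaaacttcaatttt
Itga4 promoter, chr2:79254973-79255173, plus strand: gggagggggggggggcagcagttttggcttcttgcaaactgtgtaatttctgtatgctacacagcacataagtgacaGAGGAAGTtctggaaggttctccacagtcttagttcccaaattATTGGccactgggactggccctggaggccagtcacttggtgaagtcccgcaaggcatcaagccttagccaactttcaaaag
Klf2 promoter, chr8:72318867-72319032, plus strand: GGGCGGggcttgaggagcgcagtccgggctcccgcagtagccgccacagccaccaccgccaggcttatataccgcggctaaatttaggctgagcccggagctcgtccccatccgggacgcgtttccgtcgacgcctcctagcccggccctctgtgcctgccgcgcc
Ccr7 intron, chr11:99150513-99150713, minus strand: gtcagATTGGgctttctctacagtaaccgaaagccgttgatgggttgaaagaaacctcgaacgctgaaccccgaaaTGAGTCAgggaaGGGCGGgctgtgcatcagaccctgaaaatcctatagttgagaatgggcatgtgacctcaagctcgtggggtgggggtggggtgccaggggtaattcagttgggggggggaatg

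Cxcr4 held 3 GC boxes within 27 bp of its summit, and Klf2 held 1 at the edge of its window, 100 bp upstream. GC boxes are common at open promoters: 75.7% of the 4236 shared promoter regions had one in a window of the same length. The PU.1 motif of Itga4, 23 bp upstream of the summit, was in 1.72% of these windows, and CCAAT in 37.6%. The Ccr7 intron held an AP-1 motif, which 2.78% of the 324 shared regions away from promoters had, next to a GC box, which 31.5% of them had, and CCAAT, which 25.0% of them had. Such matches describe the sequence and do not show that a factor was bound. The summit of Cxcr5 fell in an exon that begins at an internal start, where no sequence is shown, and its window held none of the 12 motifs.

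Cxcr5, the follicle-homing receptor, was open at an internal start. Its region at chr9:44526373-44526951 covered the starts at 44526421 and 44526582, and the summit lay 54 bp downstream of the nearer one. The 3 other annotated starts, at 44556286, 44556391 and 44561877, had no peak in any list. The region had 34, 27, 10 and 25 summit fragments in Brg1 fl/+ replicates 1 to 4 and 24, 12, 26 and 19 in Brg1 fl/fl replicates 1 to 4. It stood 5.65 to 9.0-fold over local background. Relative to the library median on the log2 scale, Brg1 fl/+ had a level of -0.95 ± 0.32 (SD, n = 4) and Brg1 fl/fl one of -0.92 ± 0.19 (SD, n = 4). The genotypes overlapped, and the difference of 0.03 ± 0.21 (SE) did not pass the limma test (Benjamini-Hochberg adjusted p = 0.936).

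Cxcr4, the CXCL12 receptor, had its promoter region at chr1:128592133-128592679 with the summit 83 bp upstream of the first start. It had 38, 23, 21 and 19 summit fragments in Brg1 fl/+ replicates 1 to 4 and 27, 12, 30 and 29 in Brg1 fl/fl replicates 1 to 4. Brg1 fl/+ replicate 3 was high for its depth, at -0.13 against -1.12 to -0.92 in the other Brg1 fl/+ libraries. On the centred log2 scale Brg1 fl/+ averaged -0.80 ± 0.46 (SD, n = 4) and Brg1 fl/fl -0.67 ± 0.19 (SD, n = 4), with overlapping genotypes. The difference of 0.13 ± 0.21 (SE) did not pass (limma, adjusted p = 0.739), and its 95% interval ran from -0.29 to 0.55, or 0.818 to 1.46-fold. The difference was 0.35 without Brg1 fl/+ replicate 3 and 0.02 without Brg1 fl/+ replicate 2, and it passed in neither case.

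Itga4, the adhesion molecule, had the weakest of the promoters open in all libraries. Its region at chr2:79254737-79255984 peaked 353 bp upstream of the first start and had 28, 22, 12 and 10 summit fragments in Brg1 fl/+ replicates 1 to 4 and 18, 10, 16 and 15 in Brg1 fl/fl replicates 1 to 4. It was the lowest of the 4 promoters in 7 of 8 libraries, and only 0.401% to 8.95% of shared promoter regions were lower in the same library. Brg1 fl/+ averaged -1.36 ± 0.39 (SD, n = 4) and Brg1 fl/fl -1.35 ± 0.15 (SD, n = 4) on the centred log2 scale. The genotypes overlapped, and the difference was 0.01 ± 0.23 (SE; limma, adjusted p = 0.979).

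Klf2, the transcription factor, had the strongest promoter of the set. Its region at chr8:72318679-72319299, with the summit 66 bp upstream of the single start, had 113, 81, 37 and 51 summit fragments in Brg1 fl/+ replicates 1 to 4 and 82, 45, 78 and 60 in Brg1 fl/fl replicates 1 to 4. It stood 12.5 to 17.7-fold over background and ranked by q among the best 4.64% to 15.3% of peaks of its list. Between 73.2% and 90.9% of shared promoter regions were lower in the same library. Its centred log2 level averaged 0.61 ± 0.10 (SD, n = 4) for Brg1 fl/+ and 0.81 ± 0.22 (SD, n = 4) for Brg1 fl/fl. Brg1 fl/fl replicate 4, at 0.52, lay within the Brg1 fl/+ range of 0.50 to 0.70, and the other Brg1 fl/fl libraries lay above it. The difference of 0.21 ± 0.13 (SE) did not pass (limma, adjusted p = 0.301), and its 95% interval was -0.05 to 0.46, or 0.967 to 1.38-fold.

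**Figure D2:**
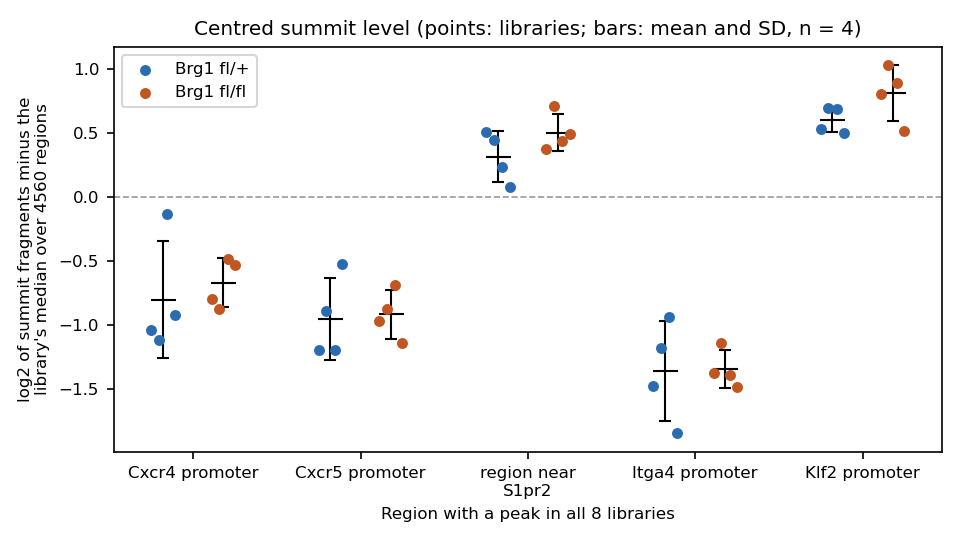
Centred summit level (y axis: log2 of summit fragments minus the library's median over 4560 shared regions) of the 5 member regions with a peak in all 8 libraries (x axis). Points are libraries and bars are the mean and SD of 4 libraries for each genotype. Klf2 and the region near S1pr2 lie above 0 in every library, Cxcr4, Cxcr5 and Itga4 below it, and the genotypes overlap at all 5 regions.

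The order by level was Klf2 first, in all 8 libraries, and Itga4 last. Cxcr4 and Cxcr5 lay between them, and the levels of these receptor promoters overlapped in both genotypes. The levels of Cxcr5 and Itga4 overlapped in both genotypes as well, and those of Cxcr4 and Itga4 in Brg1 fl/+. The fifth region with a peak in all 8 lists, chr9:20952380-20953125, was assigned to S1pr2 by distance only. It lies 9236 bp beyond the 3′ end of S1pr2, and it is a promoter region of Dnmt1, the maintenance DNA methyltransferase. It had 111, 68, 27 and 38 summit fragments in Brg1 fl/+ replicates 1 to 4 and 61, 36, 57 and 59 in Brg1 fl/fl replicates 1 to 4. Its centred levels were 0.32 ± 0.20 and 0.50 ± 0.15 (SD, n = 4 each) on the log2 scale, and the difference of 0.19 ± 0.14 (SE) did not pass (limma, adjusted p = 0.385).

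None of the 5 member regions was lower in Brg1 fl/fl, where 3.55% of all 4560 shared regions passed, and none was higher, where 9.28% passed. Only regions with a peak in every list were tested, and 4236 of the 4560 were promoter regions. A region whose peak was missing from any list could not be called, so these shares do not cover lost or gained peaks. At an unadjusted p under 0.05 the counts of member regions were also 0 and 0. The median difference was 0.13 over the 5 member regions and 0.06 over all regions on the log2 scale. Scaling to each library's background in place of the median, chosen after seeing the data, moved the median of all regions to -0.81. All 5 member regions then passed as lower in Brg1 fl/fl, at -0.74 for Cxcr4, -0.84 for Cxcr5, -0.86 for Itga4, -0.67 for Klf2 and -0.68 for the Dnmt1 promoter region near S1pr2 (limma, adjusted p from 0.000232 to 0.0035), and so did 4151 of the 4560 regions, with 16 higher. Relative to that shifted median the members differed by -0.05 to 0.14. The split over all regions was 162 lower and 423 higher as centred here, and 198 and 222 after quantile normalization. It was 98 and 278 with the libraries averaged in pairs, and 87 and 278 without Brg1 fl/fl replicate 1, so the shares above depend on how the libraries are counted. Whether the libraries differ in background for a technical reason or in overall accessibility cannot be told apart from the peak lists.

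**Figure D3:**
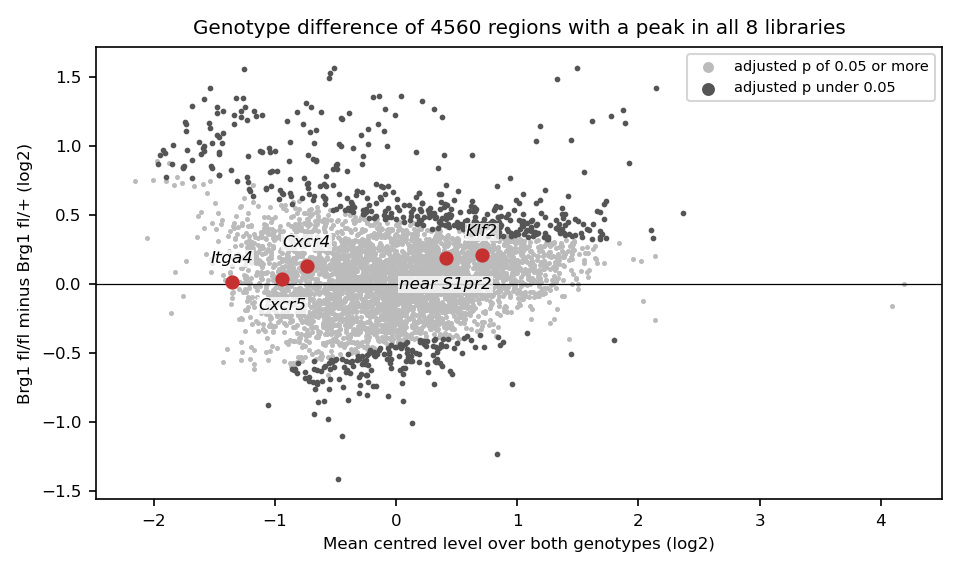
Difference between genotypes (y axis: Brg1 fl/fl minus Brg1 fl/+, log2) against mean centred level (x axis, log2) for 4560 regions with a peak in all 8 libraries; dark points passed limma at an adjusted p under 0.05, and red points are the member regions. The 5 member regions lie between 0.01 and 0.21, inside the cloud of regions that did not pass.

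Ccr7, the receptor for CCL19 and CCL21, had a weak promoter. Its region at chr11:99154929-99155481 peaked 88 bp upstream of the start, with 19 and 17 fragments in Brg1 fl/+ replicates 1 and 2, 11 in Brg1 fl/fl replicate 4 and no peak in the other 5 libraries. At its median level where detected, it would have given -log10 p values of 3.13, 2.24 and 3.13 over the local background expected in Brg1 fl/fl replicates 1, 2 and 3. The weakest peaks of those lists had 4.0, 4.26 and 4.07. However, Brg1 fl/fl replicate 4 listed its peak of 11 fragments at that same level, 0.262 of its median shared region. Its median over shared regions was 42.0 fragments, as in Brg1 fl/fl replicate 3. The expected values, which rest on a scaled background, thus do not set a limit for such a peak in these lists. In Brg1 fl/+ replicate 4 the expected value was 4.40 against a weakest peak of 4.22, and no peak was listed there either. The cause of the missing peaks was not tested.

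The Ccr7 intron region lay at chr11:99150077-99151020, with the summit 4464 bp downstream of the start, and had 25, 24 and 17 summit fragments in Brg1 fl/+ replicates 1, 2 and 4. There was no peak in Brg1 fl/+ replicate 3 or in any Brg1 fl/fl library. It stood 5.36, 7.85 and 6.80-fold over local background, at 0.321, 0.480 and 0.472 of the library's median shared region. This level comes from Brg1 fl/+ libraries only, so the expected values that follow describe what such a peak would give and are no test of the genotypes. At the median of these levels the region would have given 22.2, 10.4, 19.8 and 19.8 fragments in Brg1 fl/fl replicates 1 to 4. The -log10 p values would have been 9.21, 4.85, 8.80 and 9.22, each above the weakest peak of its list (4.0, 4.26, 4.07 and 4.05). The same held for Brg1 fl/+ replicate 3, where 10.9 fragments and 7.27 were expected against a weakest peak of 4.28 and no peak was listed either. Regions with a peak in at least 3 more Brg1 fl/+ than Brg1 fl/fl libraries made up 3.07% of 10461 pairs of gene and region away from the gene's promoter. With 4 against 4 libraries this pattern cannot pass an adjustment over all regions, and no test was run. When each list was shortened to its best 6271 peaks, the region had a peak in 1 Brg1 fl/+ and 0 Brg1 fl/fl libraries.

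The egress and confinement receptors had little signal. S1pr2 had a promoter peak at chr9:20976723-20977000 in Brg1 fl/+ replicates 1 and 4, with 11 and 6 summit fragments, and in 0 of 4 Brg1 fl/fl libraries. Its summit lay 10 bp downstream of the first start. At its median level this promoter peak would have fallen short of the weakest peak in all 4 Brg1 fl/fl lists. That level comes from Brg1 fl/+ libraries only, so the expected values are no test of the genotypes. In Brg1 fl/+ replicate 2 the expected -log10 p was 6.21 against a weakest peak of 4.03, and that list held no peak. A promoter peak in 2 or more Brg1 fl/+ and 0 Brg1 fl/fl libraries was seen at 7.70% of 10476 genes with any promoter peak. S1pr1 had no promoter peak. The nearest region, chr3:115702194-115702521, was intergenic, 12796 bp downstream of its start and past its 3′ end. It had 34 fragments in Brg1 fl/+ replicate 1, 10.7-fold over background, and no peak in the other 7 libraries, although at that level it would have passed the weakest peak in all 7. This region therefore rests on 1 library.

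Gpr183 and Ccr6 were not detected at any start. Gpr183 had 1 region within 10 kb, chr14:121950068-121950270 in an intron of Ubac2, with 8 fragments in Brg1 fl/+ replicate 2. Ccr6 had no region in its body or within 10 kb, and all of its 7 annotated starts were without a peak. For both, 0 of 8 libraries is what 52.2% of protein-coding genes showed.

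The remaining regions were weak and few. An intron region of Cxcr4 at chr1:128590859-128591384 had 17 and 12 fragments in Brg1 fl/+ replicates 1 and 2 and 14 in Brg1 fl/fl replicate 1. A region 9268 bp upstream of Cxcr4 had 14 fragments in Brg1 fl/+ replicate 1, and 63.6% of its bases are marked as repeats in the reference. A region 9346 bp upstream of the first Cxcr5 start, chr9:44571051-44571378, had 23 and 15 fragments in Brg1 fl/+ replicates 1 and 2 and 9 in Brg1 fl/fl replicate 1. At its median level, 0.295 as in Brg1 fl/+ replicate 1, this region would have passed in 4 of the 5 libraries without a peak. Brg1 fl/fl replicates 3 and 4 were among them. At the lower level of Brg1 fl/fl replicate 1, 0.191, it would have given 8.04 fragments in those 2 libraries. The weakest 5% of their peaks had a median of 9.0. The expected values are thus no test of the genotypes. A region beyond the 3′ end of Cxcr5, in an exon of Bcl9l, had 8 fragments in Brg1 fl/+ replicate 2. These peaks sat in the deepest libraries: Brg1 fl/+ replicates 1 and 2, and Brg1 fl/fl replicate 1, had the 3 longest lists.

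**Figure D4:**
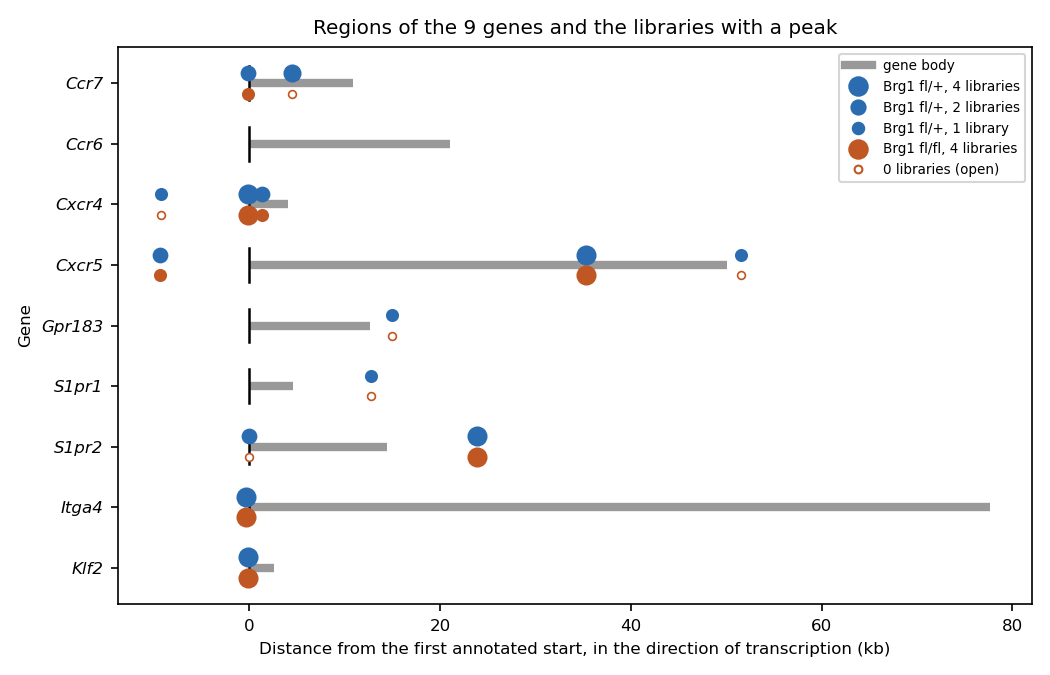
Position of the 14 regions (x axis: distance of the summit from the first annotated start in the direction of transcription, in kb) for each gene (y axis), with the gene body in grey and the start as a vertical line. Dot area grows with the number of libraries with a peak (blue, Brg1 fl/+; orange, Brg1 fl/fl; open, 0 libraries). The intron region of Ccr7 has 3 Brg1 fl/+ and 0 Brg1 fl/fl libraries, and no region has more Brg1 fl/fl than Brg1 fl/+ libraries.

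Counted over libraries, 6, 5, 4 and 5 member promoters had a peak in Brg1 fl/+ replicates 1 to 4 and 4, 4, 4 and 5 in Brg1 fl/fl replicates 1 to 4. Brg1 fl/+ averaged 5.0 ± 0.816 promoters per library and Brg1 fl/fl 4.25 ± 0.50 (SD, n = 4 each). The difference was -0.75 and was not tested. It was -0.417 without Brg1 fl/+ replicate 1 and -1.08 without Brg1 fl/+ replicate 3. Over all protein-coding genes the share with a promoter peak was 46.9%, 42.0%, 27.8% and 32.4% in Brg1 fl/+ replicates 1 to 4 and 36.3%, 27.0%, 35.1% and 35.6% in Brg1 fl/fl replicates 1 to 4. Of the 6 member promoters with any peak, 2 (Ccr7 and S1pr2) had one in fewer Brg1 fl/fl libraries, against 32.2% of such promoters overall. No member promoter had a peak in more Brg1 fl/fl libraries, against 11.3% overall. With the same number of peaks in every list the direction turned, and over all detected promoters 18.9% were then in fewer and 18.9% in more Brg1 fl/fl libraries. Cxcr4 then had a promoter peak in 2 Brg1 fl/+ and 4 Brg1 fl/fl libraries and Cxcr5 in 3 and 4, while Ccr7 and S1pr2 had none.

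Away from promoters, member regions with a peak numbered 6, 6, 1 and 2 in Brg1 fl/+ replicates 1 to 4 and 3, 1, 1 and 1 in Brg1 fl/fl replicates 1 to 4. Of the 8 regions, 7 had a peak in fewer Brg1 fl/fl libraries, where 52.2% of 10461 pairs of gene and region did, and none in more, where 15.3% did. The high counts came from Brg1 fl/+ replicates 1 and 2. With lists of equal length only 1 of the 2 regions left, the Ccr7 intron, was in fewer Brg1 fl/fl libraries, where 25.5% of all such pairs were in fewer and 25.9% in more.

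The promoters of the set were not alike in CpG content. The ratio of observed to expected CpG in the promoter window of the first protein-coding start was 0.629 at Cxcr4 and 0.564 at Klf2, above the median of 0.403 over all protein-coding genes. It was lower at S1pr1 (0.331), Ccr7 (0.323), S1pr2 (0.322), Itga4 (0.281), Gpr183 (0.208), Cxcr5 (0.129) and Ccr6 (0.0754). Across genes, promoter peaks in all 8 lists rose from 2.07% of genes at a ratio under 0.2 to 62.2% at 0.8 or more. Itga4, detected in all 8 libraries, shared the bin from 0.2 to 0.4 with S1pr1, Gpr183, Ccr7 and S1pr2, where 6.86% of genes had a peak in all 8. Cxcr5 was in the lowest bin, but its peak lay at starts that this window did not cover.

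**Figure D5:**
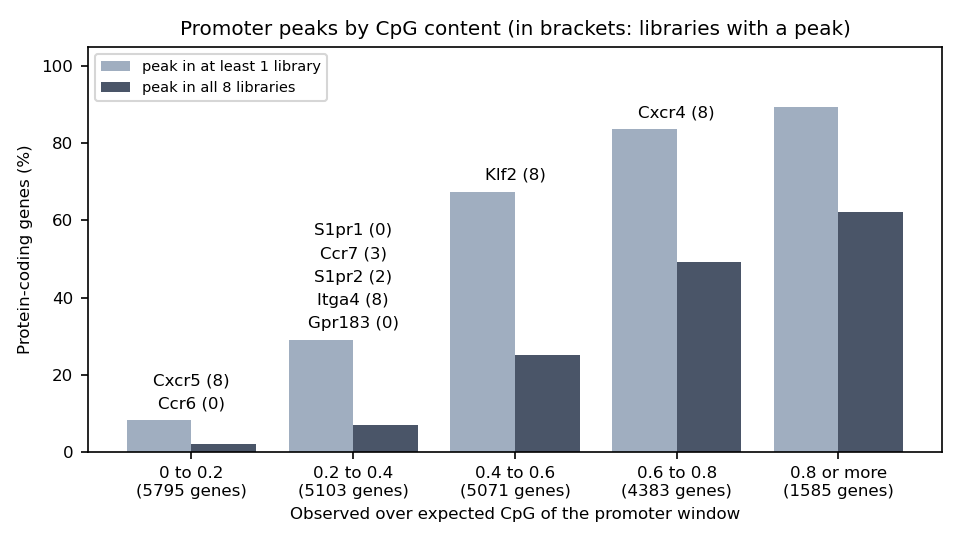
Share of protein-coding genes (y axis, %) with a promoter peak in at least 1 (light bars) or all 8 (dark bars) libraries, by the observed over expected CpG of the promoter window (x axis). Member genes are written above their bin with the number of libraries with a promoter peak in brackets; Cxcr4 and Klf2, with 8 each, are in bins where 49.2% and 25.0% of genes had a peak in all 8.

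Of 58 other genes of B cell migration, 33 had a promoter peak in at least 1 library and 12 in all 8. Among all protein-coding genes, 47.8% had one in at least 1 library and 22.2% in all 8. Of the 33 migration genes, 13 (39.4%) had a peak in fewer Brg1 fl/fl libraries and 4 (12.1%) in more. The shares of all detected promoters were 32.2% and 11.3%. None of the 12 promoters open in all libraries passed limma in either direction. Of all shared regions, 3.55% passed as lower and 9.28% as higher, so few would be called among 12 at those shares. The log2 differences of the 12 ran from -0.40 to 0.32, with a median of 0.03. Of 8 other receptors, P2ry10, a lysophospholipid receptor, and Cnr2, a cannabinoid receptor, had a promoter peak, each in 1 Brg1 fl/+ library. Among 9 adhesion genes, Itgb1, which encodes the β1 partner of the Itga4 product, had a promoter peak in 2 Brg1 fl/+ and 4 Brg1 fl/fl libraries, and Itgal, the αL chain of LFA-1, in 1 and 0. Of 13 G protein signalling genes, 10 had a promoter peak in at least 1 library and 5 in all 8. Rgs10 and Rgs14, which shorten Gαi signals, each had one in 2 Brg1 fl/+ and 0 Brg1 fl/fl libraries. Of 12 genes of the cytoskeleton and integrin activation 9 had a peak, among them the Rac activator Dock2 in 2 Brg1 fl/+ and 0 Brg1 fl/fl libraries and Dock8 in 2 and 1. Of 7 genes that make or handle the lipid ligands or S1P receptors, 3 had a peak, and Sphk2, a sphingosine kinase, had it in 3 and 4. All 4 transcription factor genes had one, with Elf4 in 2 and 1. The 5 chemokine genes Cxcl12, Cxcl13, Ccl19, Ccl20 and Ccl21a, made mainly by other cells, had none.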

How the data were processed

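Peak lists of 8 ATAC-seq libraries, 4 per genotype, were used. Reads had been mapped by the authors with Bowtie2 (mm10), and MACS2 was run on every library by itself, without pooling replicates. Versions, options, duplicate handling and any Tn5 shift are not given in the sources used here. Each deposited list gives the fold (a ratio) of the summit over local background, its −log10 p and −log10 q, and a deposited score that was not used. The 8 RNA-seq libraries were not analysed here.

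Overlapping or touching peaks were joined into regions and placed with the GENCODE M21 annotation. Summit fragments were solved for from each peak's fold and −log10 p, to within 0.002. Log2 of that number, centred per library, was tested with limma 3.58.1 in R 4.3.3 (eBayes with trend, two-sided, Benjamini-Hochberg over 4560 regions, threshold 0.05). Detection was counted without a test. The peak threshold, list length, overlap, joining, promoter window, scaling and libraries were varied. Python 3.11.15 with pandas 2.3.3, scipy 1.17.1 and pysam 0.24.0 was used, and the steps were tested on simulated data.

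For a library without a peak, the −log10 p was computed from the region's median level and background in the libraries with one, both scaled to that library. Nothing in the labels says that the 4 libraries of a genotype came from separate mice, and peak names mark them as pairs, so p-values cover the spread between these libraries, which may be technical. Summit numbers of 2 libraries differed by about the counting noise within a genotype (variance over that of counting alone, 0.756 to 1.20 among the Brg1 fl/+ libraries, 0.795 to 0.866 among the Brg1 fl/fl libraries, and 1.00 to 1.81 across genotypes). Libraries of a named pair gave 0.887 and 0.756 in Brg1 fl/+. Each library was counted as 1, and averaging the pairs was tried as an alternative. Replicate numbers did not pair the genotypes: the correlations of deviations were -0.00763, -0.0608, -0.0289 and -0.0351. The genes and lists were chosen with earlier results of these data known. All 9 genes are named. Of their other regions those in all 8 lists, in at least 3 more libraries of 1 genotype, or past the threshold are described singly, and of the other migration genes at most 2 per role, by the largest difference in the number of libraries. A result for 1 marker gene is not reported here.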

Additional observations from a re-analysis of the deposited data

Results flagged for a closer look

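In 2 of 14 groups of 4 libraries, 1 library stood apart by Dixon's ratio. Both are small whole-number counts in which the other 3 libraries tie, so the ratio is 1 whatever the gap, and the usual chance of about 1 group in 20 does not apply. Brg1 fl/fl replicate 4 had 5 member promoters with a peak and the other Brg1 fl/fl libraries had 4 each, the additional one being Ccr7. Brg1 fl/fl replicate 1, the longest Brg1 fl/fl list, had 3 member regions away from promoters and the other Brg1 fl/fl libraries had 1 each.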

How the results depend on the processing

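Of 125 alternative values for the counts and the mean difference, 115 kept their value or stayed within the limits set, and 10 moved. With lists of equal length the difference in member promoters per library was 0.75 in place of -0.75. Then 0 member promoters were in fewer and 2 in more Brg1 fl/fl libraries, against 18.9% and 18.9% of all detected promoters. Of the other member regions 1 was in fewer, where 25.5% of all pairs of gene and region were. At a −log10 q of at least 5, 1 member promoter was in fewer and 1 in more; at 10 or more, 3 other regions were in fewer. Requiring 50% cover, or joining libraries 1 and 2, and 3 and 4, left 1 member promoter in fewer. The shares of all detected promoters in fewer were 33.2% with 50% cover and 20.4% with joined libraries. With each library left out, the difference ran from -1.08 to -0.417. Other member regions in fewer Brg1 fl/fl libraries then numbered 5 to 7, with 5 without Brg1 fl/+ replicate 1 or 2. Of all such pairs, 39.7% were in fewer without Brg1 fl/+ replicate 1 and 53.0% without Brg1 fl/+ replicate 2. Scaled to the background of each library, 5 member regions were lower, as were 4151 of all 4560 shared regions. The member differences were -0.743 (Cxcr4), -0.839 (Cxcr5), -0.86 (Itga4), -0.666 (Klf2) and -0.683 (near S1pr2). Of the 92 values of single regions, 16 changed sign, none of them past the threshold except under that scaling: Cxcr4 -0.0421 and the region near S1pr2 -0.0344 with the deposited fold; Itga4 -0.213 and Cxcr5 -0.028 after quantile normalization; and, with each library left out, Itga4 between -0.15 and 0.154 and Cxcr5 between -0.0491 and 0.176, each negative in 3 of 8 cases; Cxcr5 was -0.0643 without both shallowest libraries (chosen after seeing the data). The cause was not tested. With the replicate number as a block, 159 regions were lower and 411 higher over all regions (162 and 423 without it), with 0 member regions in either direction and a smallest adjusted p of 0.318 among them; the numbers do not pair the samples. At a −log10 q of at least 10, or with equal lists, only Klf2 and the Dnmt1 promoter region near S1pr2 could be tested. The Ccr7 and S1pr2 promoters had 6 to 19 fragments where detected. Over the scaled background, a peak of their median level would have passed in 1 library each of those without one.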
